A study of Mus musculus with 8 samples.

Results

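Prostanoids act on a uterus through a small set of receptors and are then taken up and destroyed, and 10 genes of that arm were examined: the PGE2 receptor genes Ptger1, Ptger2, Ptger3 and Ptger4, the other prostanoid receptor genes Ptgfr, Ptgir, Ptgdr and Tbxa2r, the uptake transporter gene Slco2a1 and the breakdown enzyme gene Hpgd. The members were listed by symbol, with earlier results of these data known, and the probe set of highest mean was to be taken for each gene. All 10 were measured, each by 1 probe set, among 19505 genes on the array. Expression was measured with microarrays in the uterus of wildtype C57BL/6J mice on day 4.5 of pseudopregnancy, counting the day of the mating plug as 0.5, and each array held RNA of a single mouse. All mice had been mated to vasectomised males, so no embryo was present in either group.

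In the exposed group, 4 mice breathed electronic cigarette aerosol, with 2 puffs each minute over 3 hours of the day. Exposure ran for 4 weeks ahead of mating (5 days in each week) and continued every day up to collection. The liquid held nicotine at 24 mg/mL in 55 parts propylene glycol to 45 parts vegetable glycerin, with no flavouring, and the coil was set to 245 °C. In the sham group, 4 mice were given room air alone. There were only these 2 groups, so nicotine and the carrier liquid cannot be told apart. Age and processing batch were not given in the sources used here. All expression values are on the log2 scale, and group means stand with their SD over 4 mice. Since the labels name uterine tissue and no sorting of cells, fewer cells of a type and less RNA per cell cannot be told apart for any gene below.

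Prostanoids are short-lived lipids made from arachidonic acid by the cyclooxygenases and by enzymes specific to each product. Each receptor is a G protein-coupled receptor. The products of Ptger2, Ptger4, Ptgir and Ptgdr raise cyclic AMP through Gs, that of Ptger3 mainly lowers it through Gi, and those of Ptger1, Ptgfr and Tbxa2r act mainly through calcium, with Tbxa2r also coupled to G13. The transporter encoded by Slco2a1 carries prostaglandins into cells, where 15-hydroxyprostaglandin dehydrogenase, the product of Hpgd, oxidises them to products with little activity. In the mouse uterus around implantation, prostaglandins act in vascular permeability and decidualization, and at term they act in contraction of the myometrium.

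Across the 10 genes, exposed means were higher for 5 and lower for 5. Limma placed 0 of the 10 past an adjusted p of 0.05, where Benjamini-Hochberg adjustment covered all 22206 probe sets, and 0% of the array passed at that threshold. At an unadjusted p under 0.05 the count was 1 of 10, Ptger4, against 5.42% of all probe sets in either direction and 2.91% with a higher exposed mean. With so few members, a single gene lies close to that background. Over the whole array, limma gave 1203 probe sets at an unadjusted p under 0.05. The median log2 difference of the members was 0.014, beside -0.00054 for all genes, and the median size of the difference, whatever its sign, was 0.061 beside 0.095. All 10 members differed by less than 1.5-fold, and 8 by less than 1.2-fold.

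**Figure D1:**
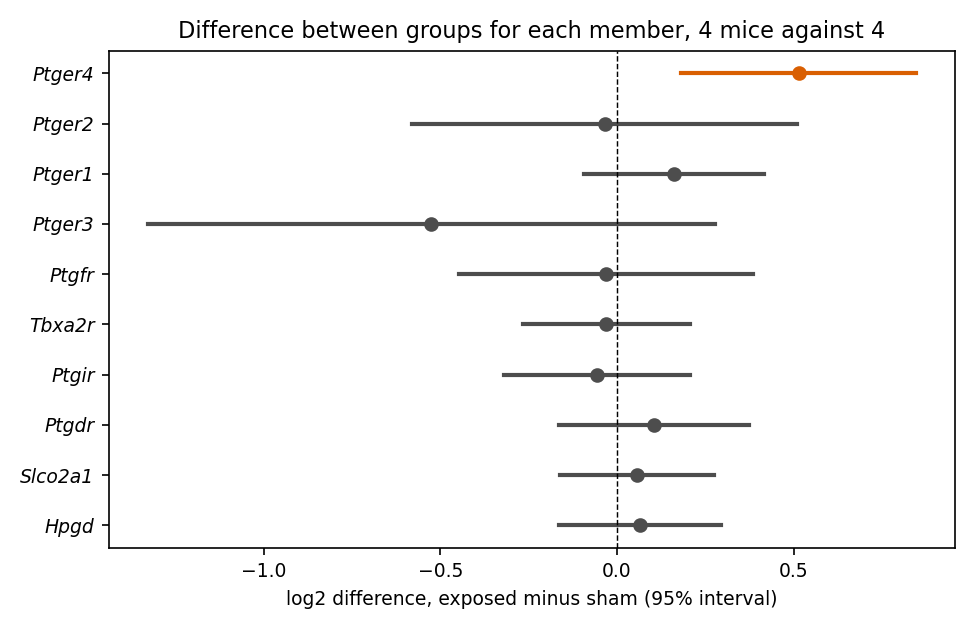
Log2 difference, exposed minus sham, for the 10 genes (dots) with limma's 95% interval (lines), from 4 mice in each group. The interval of Ptger4 alone lies to one side of 0, from 0.18 to 0.85, and that of Ptger3 is the widest, from -1.33 to 0.28.

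Ptger4, which encodes EP4, a Gs-linked PGE2 receptor (Entrez gene 19219), had higher values in exposed than in sham uteri. Sham mice 1 to 4 gave 8.31, 8.49, 8.61 and 8.23, and exposed mice 1 to 4 gave 8.65, 8.89, 8.83 and 9.33. Every exposed value lay above every sham value, with a gap of 0.039 between sham mouse 3 and exposed mouse 1, and exposed mouse 4 stood highest. Among the members it was the only gene whose groups did not overlap, and this held for 2.73% of all probe sets in either direction and for 1.38% with exposed values on top. The group means were 8.41 ± 0.17 in sham and 8.92 ± 0.29 in exposed mice (n = 4 each), a log2 difference of 0.51 ± 0.15 (SE) or 1.43-fold, with a 95% interval of 0.18 to 0.85. Limma's unadjusted p was 0.00619, rank 96 among the 22206 probe sets, and its adjusted p was 0.838, so Ptger4 did not pass over the array. The exact two-sided permutation p was 0.0286, the smallest that 4 mice against 4 can give. Left out in turn, each of the 8 mice gave a difference between 0.38 (without exposed mouse 4) and 0.61 (without exposed mouse 1), with limma's unadjusted p between 0.00258 and 0.0199.

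The stretch of DNA before the annotated start of Ptger4 is shown with those of Ptger2, which encodes the other Gs-linked PGE2 receptor, and of Ptger3, because these 3 receptors for the same ligand gave, in that order, higher exposed values, a mean difference near 0 and the widest exposed spread. Sequences are from RefSeq, build GRCm38.p6, written 5′ to 3′ on the strand of the gene, and capitals mark the motif letters named below. They lie at chr15:5244188-5244437 on the minus strand (Ptger4), chr14:44987861-44988110 on the plus strand (Ptger2) and chr3:157566626-157566820 on the plus strand (Ptger3). That of Ptger3 is 195 bases long because it stops before the first annotated base of the gene.
Ptger4: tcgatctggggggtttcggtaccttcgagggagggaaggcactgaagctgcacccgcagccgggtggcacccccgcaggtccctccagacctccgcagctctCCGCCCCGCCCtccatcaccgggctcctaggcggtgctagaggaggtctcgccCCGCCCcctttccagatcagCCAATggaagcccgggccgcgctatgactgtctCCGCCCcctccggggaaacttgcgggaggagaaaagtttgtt
Ptger2: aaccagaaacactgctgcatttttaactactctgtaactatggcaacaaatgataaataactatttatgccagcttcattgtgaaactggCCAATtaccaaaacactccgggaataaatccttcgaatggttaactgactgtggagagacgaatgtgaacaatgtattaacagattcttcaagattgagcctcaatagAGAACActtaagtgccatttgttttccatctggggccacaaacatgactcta
Ptger3: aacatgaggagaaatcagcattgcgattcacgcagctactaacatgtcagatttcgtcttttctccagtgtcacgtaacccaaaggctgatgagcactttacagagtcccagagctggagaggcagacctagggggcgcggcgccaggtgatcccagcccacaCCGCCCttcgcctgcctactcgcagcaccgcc

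Motif letters were searched on both strands in the 250 bases before each annotated start, for 10 starts of 9 members and for 32851 starts in all. The windows of Slco2a1 and of the downstream start of Tbxa2r lay wholly inside the annotated span of the gene. The end of the Ptger3 window did too, and the counts and GC shares below include these bases. GGGCGG, the GC box, occurred before 6 of the 10 member starts, those of Hpgd, Ptger3, Ptger4, Ptgfr, Ptgir and Slco2a1, and before 32.7% of all starts. Before Ptger4 it occurred at 4 places, of which 2 overlap by a base, and before Ptger3 at 3 places, of which 2 reach beyond the stretch shown. It was not found before Ptger2. CCAAT occurred before Ptger2, Ptger4 and a start of Tbxa2r, 3 of the 10 member starts, and before 33.8% of all. The full cyclic AMP response element TGACGTCA was found before 0 of the 10 member starts and 1.55% of all starts, its first letters TGACG (which the full element contains) before 1 of the 10, a start of Tbxa2r, and 17.8% of all. TGTTCT, recognised by steroid receptors, occurred before Ptger2 (16.1% of all starts). AGGTCA, recognised by many nuclear receptors, occurred before Ptgfr and both starts of Tbxa2r (14.0% of all), and TATAAA before Slco2a1 (12.4%). TGANTCA (6.75% of all) and CACGTG (6.02%) were found before 0 of the 10 starts. The window was rich in G and C before Ptger4 (66.8%) and Ptger3 (62.0%) and poor before Ptger2 (38.0%), with a median of 52.4% over all starts. A match describes these letters and does not show that a factor binds there.

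**Figure D2:**
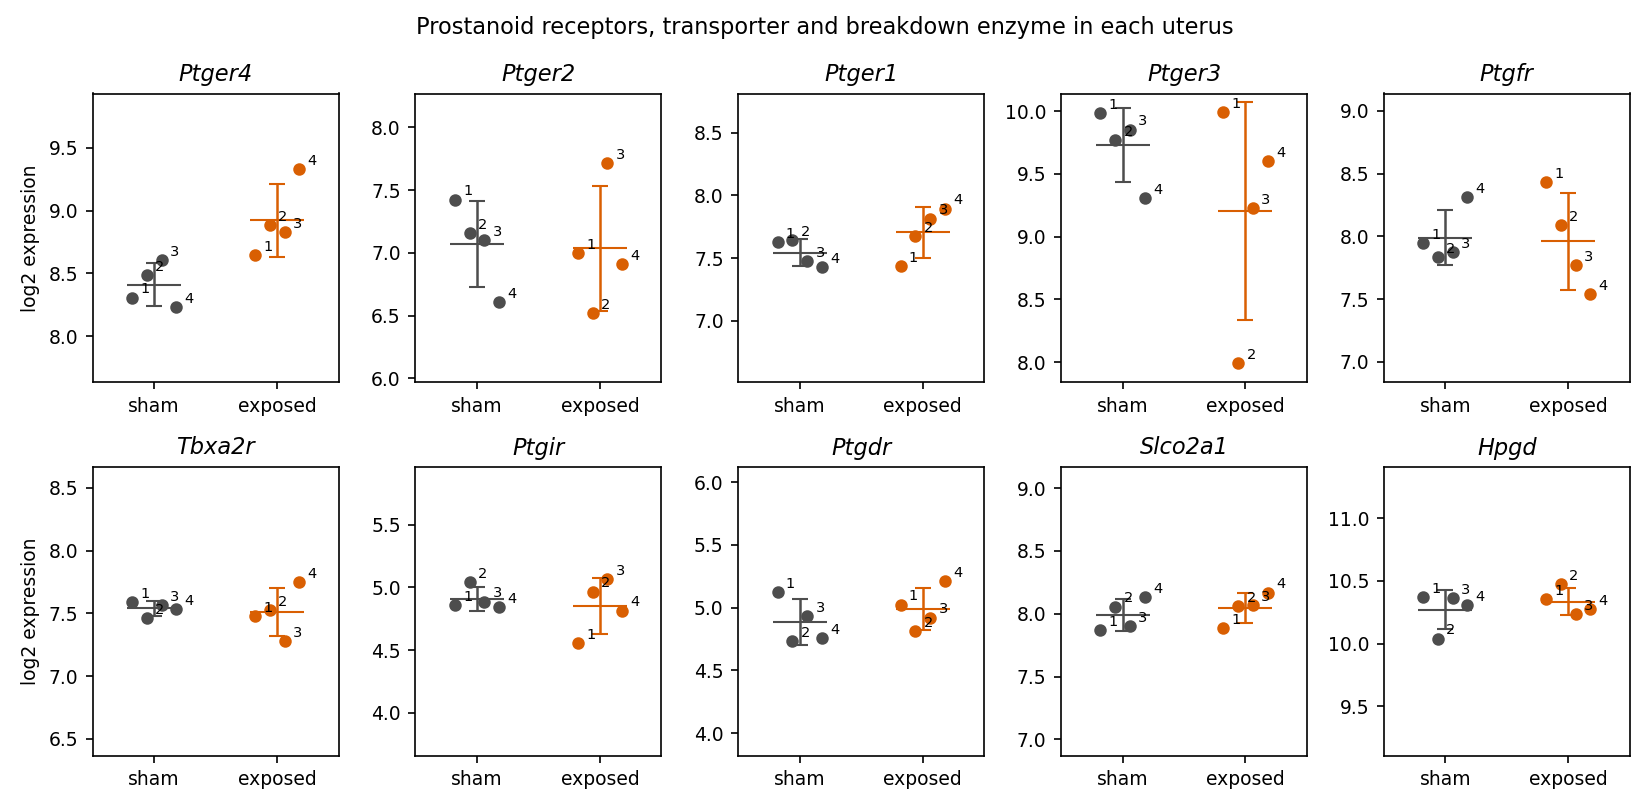
Log2 expression of each gene in every mouse (dots, numbered within group), with the group mean and SD (bars). All panels span the same range of 2.3 log2 units. Exposed values of Ptger4 all lie above the sham values, exposed mouse 2 lies lowest for Ptger3 at 7.99, and the groups overlap for the other 9 genes.

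Ptger2, which encodes EP2, the other Gs-linked PGE2 receptor, had nearly equal group means. Its sham values were 7.42, 7.16, 7.10 and 6.61 and its exposed values 6.997, 6.52, 7.72 and 6.91, mice 1 to 4 in each group. Exposed mice 2 and 3 held the lowest and the highest value of the 8, so that the spread was wide and the groups overlapped. The difference was -0.04 ± 0.24 (SE), and the 95% interval from -0.58 to 0.51 allows a change of up to 1.49-fold down or 1.42-fold up. Its sign turned without exposed mouse 2 (0.14), exposed mouse 4 (0.0062) or sham mouse 1 (0.082).

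Ptger3, which encodes the Gi-linked receptor EP3 (Entrez gene 19218), had the largest difference in size among the members, and leaving out exposed mouse 2 moved it most. Sham mice 1 to 4 gave 9.98, 9.77, 9.85 and 9.31, and exposed mice 1 to 4 gave 9.99, 7.99, 9.23 and 9.60. Exposed mouse 2 lay 1.74 below the sham mean, while exposed mouse 1 lay at the top of all 8 mice. Group means were 9.73 ± 0.29 and 9.20 ± 0.87 (n = 4 each), sham first, and the log2 difference was -0.53 ± 0.36 (SE) with a 95% interval of -1.33 to 0.28 (limma's adjusted p = 0.841). Without exposed mouse 2 the difference was -0.12, and without exposed mouse 1 it was -0.79 (limma's unadjusted p = 0.0441, adjusted p = 0.427). The exposed SD of Ptger3 exceeded that of 99.2% of probe sets on the array, and its sham SD exceeded 92.3%.

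Ptger1 encodes EP1, the calcium-linked PGE2 receptor. Sham values were 7.63, 7.64, 7.48 and 7.43, and exposed values were 7.44, 7.68, 7.82 and 7.90. Exposed mice 2, 3 and 4 lay above all sham mice, and exposed mouse 1 lay among them. The difference was 0.16 ± 0.11 (SE), 95% interval -0.09 to 0.42, and it was 0.25 without exposed mouse 1 (limma's unadjusted p = 0.0337, adjusted p = 0.402). Without that mouse, Ptger1, Ptger3 and Ptger4 all had an unadjusted p under 0.05, 3 members in place of 1, and the whole array had 2545 such probe sets in place of 1203.

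Ptgfr encodes FP, the PGF2alpha receptor, known for its part in luteolysis and in contraction of the uterus at term. Its sham values were 7.95, 7.83, 7.87 and 8.31, and its exposed values were 8.43, 8.09, 7.77 and 7.54. The exposed mice reached further in both directions than the sham mice, with exposed mouse 1 highest and exposed mouse 4 lowest of the 8. The difference was -0.03 ± 0.19 (SE), with a 95% interval of -0.45 to 0.39, and it turned to 0.11 without exposed mouse 4, 0.032 without exposed mouse 3 and 0.077 without sham mouse 4.

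Tbxa2r, the gene of the thromboxane receptor TP, had the most even sham values of the members (7.59, 7.46, 7.57 and 7.54, SD 0.057), and its exposed values, 7.48, 7.53, 7.28 and 7.75, fell on both sides of them. The difference was -0.03 ± 0.11 (SE), with a 95% interval of -0.27 to 0.21, and it was 0.046 without exposed mouse 3. Ptgir, the gene of the prostacyclin receptor IP, ranged from 4.84 to 5.04 in sham and from 4.55 to 5.07 in exposed mice, with a difference of -0.06 ± 0.12 (SE) that turned to 0.042 without exposed mouse 1. Ptgdr, the gene of the PGD2 receptor DP1, ranged from 4.73 to 5.12 and from 4.81 to 5.21, with a difference of 0.10 ± 0.12 (SE). The probe sets of Ptgir and Ptgdr were dim, with mean values at percentiles 17.2 and 17.8 of the array. Whether they lay above background is not known here, and a change in a gene at background would not be visible.

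The genes that end prostaglandin action gave narrow intervals around 0. Hpgd values were 10.37, 10.04, 10.36 and 10.30 in sham and 10.36, 10.47, 10.23 and 10.27 in exposed mice, overlapping closely. Group means were 10.27 ± 0.16 and 10.33 ± 0.11 (n = 4 each), a difference of 0.06 ± 0.10 (SE) with a 95% interval of -0.16 to 0.29, whose ends are changes of 1.12-fold down and 1.23-fold up. Without sham mouse 2, its lowest mouse, the difference was -0.012. Slco2a1 values were 7.87, 8.06, 7.90 and 8.13 in sham and 7.89, 8.06, 8.07 and 8.17 in exposed mice, a difference of 0.06 ± 0.10 (SE) with a 95% interval of -0.16 to 0.28. For these 2 genes, and for 6 of the 8 receptor genes, the 95% interval lay within a change of 1.5-fold in either direction, the exceptions being Ptger4 and Ptger3. An interval within that range does not show that the groups were alike.

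**Figure D3:**
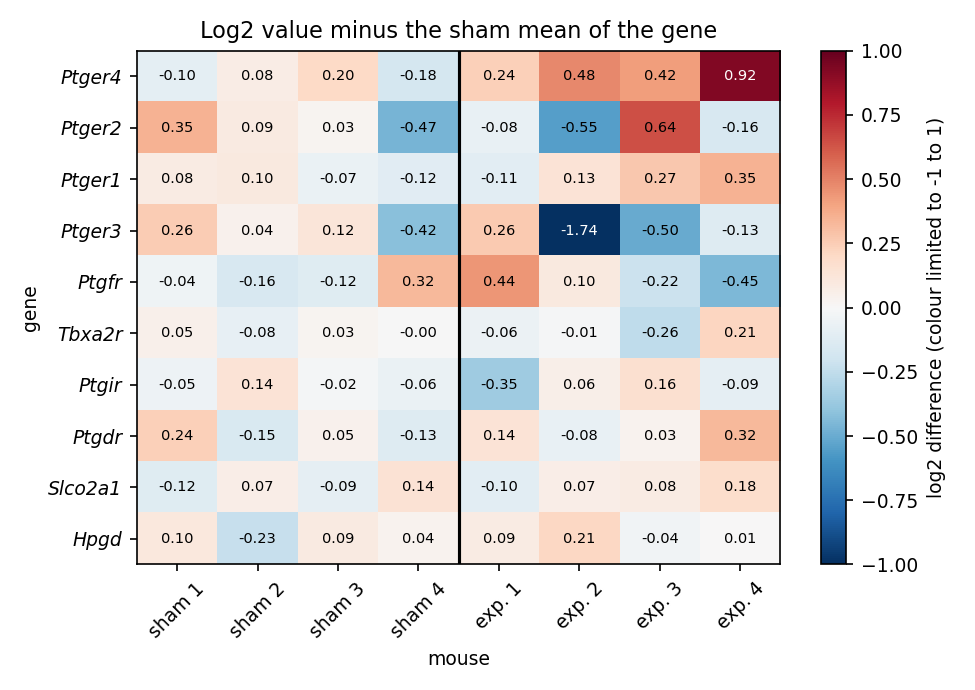
Log2 value of each gene (rows) in each mouse (columns) minus the sham mean of that gene, with the value printed in each cell. Red is above and blue below the sham mean. The extremes are exposed mouse 2 for Ptger3 (-1.74) and exposed mouse 4 for Ptger4 (0.92).

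Exposed mice varied more than sham mice in 7 of the 10 genes and less in Ptgdr, Hpgd and Slco2a1. On the whole array the SD was larger in exposed mice for 65.8% of probe sets, with a median of 0.176 against 0.134 in sham. Exposed mouse 4 held the highest value of the 8 for 5 members (Ptger4, Ptger1, Tbxa2r, Ptgdr and Slco2a1) and the lowest for Ptgfr, and no sham mouse held the highest value of any member. How often each mouse was highest or lowest over the whole array was not counted, so these counts have no background to be read against. The array of exposed mouse 4 correlated least with the others over all probe sets (mean r = 0.977), followed by exposed mouse 2 (0.982), with the other 6 mice between 0.986 and 0.987. Without exposed mice 2 and 4, the difference was 0.33 for Ptger4 (limma's unadjusted p = 0.0352, adjusted p = 0.9995), -0.12 for Ptger3 and 0.081 for Ptger1.

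Of the 45 pairs of members, correlated over 8 mice, 22 had a positive and 23 a negative Pearson r. Ptger1 and Ptgfr ran opposite to each other, with r = -0.82 (exact permutation p = 0.0145, adjusted p = 0.653) and Spearman's rho = -0.81 (exact permutation p = 0.0218, adjusted p = 0.688). Leaving out sham mouse 4 and exposed mouse 4, the mice farthest from the median of Ptger1, gave r = -0.63. On deviations from the group means r was -0.92 (exact permutation within groups, p = 0.00521, adjusted p = 0.234). Ptger1 and Ptger4 were correlated positively over the 8 mice, with r = 0.74 (exact permutation p = 0.0328, adjusted p = 0.679) and rho = 0.76 (exact permutation p = 0.0368, adjusted p = 0.688). Without the same pair of mice, r fell to 0.32. These mice were left out for their extreme Ptger1 values, which by itself narrows the range. On deviations from the group means r was 0.64 (exact permutation within groups, p = 0.189, adjusted p = 0.660). By Pearson's r or by Spearman's rho, 0 pairs passed adjustment over the 45, and the unadjusted count under 0.05 was 2 and 3.

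Markers of uterine cell types are given here beside the member values, and no correlation between the 2 was computed. All 8 uterine identity genes measured, among them Hoxa10, Pgr and Esr1, lay above the array median, and their mean ranged from 9.45 to 9.71 in sham and from 9.46 to 9.78 in exposed mice. Smooth muscle markers, all 10 of them measured and all with lower exposed means, had a mean of 10.28 to 10.64 in sham and 9.95 to 10.51 in exposed mice. The lowest smooth muscle values belonged to exposed mouse 2 (9.95) and sham mouse 4 (10.28), which also had the lowest Ptger3 value of their groups. Stromal markers, 9 of 10 measured, with 4 higher and 5 lower exposed means, ranged from 10.68 to 10.72 in sham and from 10.27 to 10.72 in exposed mice, again with exposed mouse 2 lowest. The matrix genes Col1a1 (9.95), Col3a1 (11.08) and Vcan (8.37) were lowest of the 8 mice there, while Dcn, also a matrix gene, was highest (13.07). Adipocyte markers, 7 of 8 measured and 6 of them with higher exposed means, had the largest group difference of the marker lists (0.52), with exposed mice 1 and 2 at 6.68 and 6.91 and the other 6 mice between 5.53 and 5.99. Those mice gave the highest (9.99) and the lowest (7.99) Ptger3 value. EP3 is known from smooth muscle of the myometrium, and the part of muscle, stroma or fat content in the Ptger3 values was not tested.

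Beside Ptger4, luminal epithelium markers, 11 of 12 measured and 8 of them with lower exposed means, ranged from 8.64 to 8.92 in sham and from 7.78 to 8.67 in exposed mice, with exposed mouse 4 lowest. Gland markers, all 8 measured, ranged from 7.26 to 7.69 in sham and from 7.10 to 9.19 in exposed mice, with exposed mouse 4 highest. That score is carried by Spink1, Prss28 and Prss29, secreted products of glands, at 12.22, 12.64 and 12.04 in that mouse, while Foxa2 and Cxcl15, also gland genes, were lowest of the 8 there (7.16 and 6.51). Macrophage and monocyte markers, 9 of 10 measured, had 1 higher and 8 lower exposed means. Their mean ranged from 7.82 to 8.11 in sham and from 7.26 to 8.18 in exposed mice. Endothelium markers, 9 of 10 measured, had 8 higher and 1 lower exposed means. Their mean ranged from 8.30 to 8.86 in sham and from 8.58 to 8.94 in exposed mice, with exposed mouse 4 highest. For each of the 21 marker lists the sham and exposed ranges overlapped, and 0 of the uterine identity, luminal epithelium, gland, stromal, smooth muscle and macrophage markers had a mean below the 25th percentile of the array. Of the 7 adipocyte markers measured, 2 did, Adipoq (percentile 21.4) and Lep (15.2). The part of these cell types in the Ptger4 values was not tested, and the Ptger4 difference without exposed mouse 4 is given above.

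**Figure D4:**
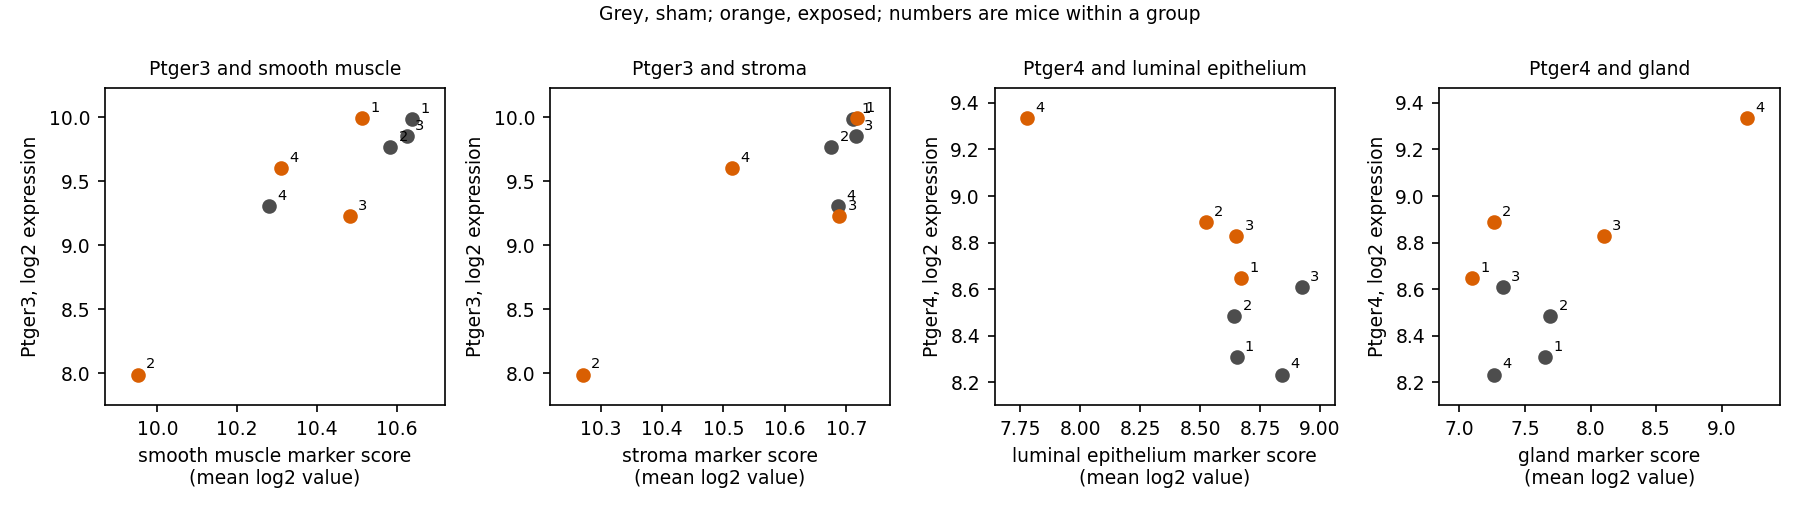
Log2 expression of Ptger3 against the mean log2 value of smooth muscle and stromal markers, and of Ptger4 against that of luminal epithelium and gland markers, in each mouse (grey, sham; orange, exposed; numbered within group). Exposed mouse 2 is lowest on both axes of the Ptger3 panels, and exposed mouse 4 lies apart from the other 7 in the Ptger4 panels.

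Around these receptors, 82 further genes were measured in 7 lists, which cover synthesis, other receptors, other transport and breakdown, the G protein arms and desensitization. Exposed means were higher for 41 of them and lower for 41, and limma placed 0 past adjustment over the array. An unadjusted p under 0.05 was reached by 13 of the 82, beside the 5.42% of the array given above, and 6 of the 13 were enzymes of synthesis. The lists were written with earlier results of these data known.

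Among 11 synthesis genes measured, 4 had higher and 7 lower exposed means, and 1 higher and 5 lower had an unadjusted p under 0.05 in limma. Ptgs1, Akr1b3 and Akr1b7 were also listed but had no matching symbol, so the counts do not cover them. Ptgs2, the inducible cyclooxygenase (5.70 ± 0.39 against 6.57 ± 0.49 in sham mice, n = 4 each), and Hpgds, a PGD2 synthase (8.50 ± 1.03 against 7.18 ± 0.30), had the smallest p-values of the list. Ptges2, a PGE2 synthase, ranged from 6.60 to 6.94 in sham and from 6.16 to 6.58 in exposed mice, with no overlap between the groups. It was 1 of the 82 genes to do so, a smaller share than the 2.73% of all probe sets. Pla2g4a, the phospholipase that releases arachidonic acid, differed by -0.38 ± 0.15 (SE). Their adjusted p in limma was 0.838 in each case. The median difference of the list was -0.019. The count of 6 fell to 3 without sham mouse 1 and to 1 without exposed mice 2 and 4. The count over the whole array fell as well, from 1203 probe sets to 897 and 884 in the same order.

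Hpgds and Ptger4 had their highest values in the same mouse, exposed mouse 4 (9.69 for Hpgds), followed by exposed mouse 2 for both genes (8.97 for Hpgds). Ptgdr2, the gene of the second PGD2 receptor, was 6.53 ± 0.18 in sham and 6.81 ± 0.46 in exposed mice (n = 4 each), with exposed mice 2 and 4 highest at 7.30 and 7.02. The difference was 0.28 ± 0.21 (SE), which did not pass (limma's adjusted p = 0.844).

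In the list of other receptors and partners, 4 of 7 had higher and 3 lower exposed means (median 0.029). Pparg is the gene of a nuclear receptor for which a PGD2 breakdown product is a ligand in cultured cells. It was 5.87 ± 0.14 in exposed and 6.15 ± 0.19 in sham mice. Rxrg, on a dim probe set (percentile 17.0 of the array), differed by 0.22 ± 0.11 (SE). Ptgfrn, which encodes a partner of the FP receptor, differed by -0.19 ± 0.14 (SE). Only Pparg had an unadjusted p under 0.05 (0.0411 in limma, adjusted p = 0.838).

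Of 10 other genes of transport and breakdown, 6 had higher and 4 lower exposed means (median 0.036). Akr1c18, an aldo-keto reductase best known for inactivating progesterone, gave 6.08, 5.54, 5.22 and 4.81 in sham mice. Exposed mice gave 4.69 to 4.82, and sham mouse 4 lay inside that range. The probe set of Akr1c18 was dim (percentile 19.5 of the array), and whether it lay above background is not known here. Akr1c14, also an aldo-keto reductase, gave 8.51 to 9.16 in sham mice and 8.52, 11.03, 9.86 and 10.04 in exposed mice 1 to 4, so that exposed mouse 1 alone lay within the sham range. The differences were -0.69 ± 0.22 and 1.17 ± 0.42 (SE), with limma's adjusted p at 0.838 for both. Slco2b1, an uptake transporter of the same family as Slco2a1, differed by 0.53 ± 0.27 (SE), and Slco1a5, a further family member on a dim probe set, by 0.14 ± 0.12 (SE). Abcc4, the exporter of prostaglandins, was 9.40 in sham and 9.50 in exposed mice, a difference of 0.10 ± 0.12 (SE).

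Downstream of the receptors, the cyclic AMP arm was divided evenly, with 12 of 24 genes higher, 12 lower and a median of 0.0057. The phosphodiesterase genes Pde7b and Pde8a, whose products degrade cyclic AMP, differed by 0.31 ± 0.11 and 0.40 ± 0.16 (SE), Prkar2a, a regulatory subunit of protein kinase A, by -0.23 ± 0.13, and Gnas, the gene of the Gs alpha subunit, by -0.11 ± 0.09. In the calcium arm 7 of 12 genes had higher means (median 0.018), and Plcb1, Prkca, Gna11 and Prkce, the members of smallest p, differed by -0.20, -0.20, -0.13 and 0.18. In the arms of Gi, G12 and G13, 5 of 11 had higher means (median -0.036), with Gnai3 at -0.17, Gnao1 at 0.17, Rock1 at 0.14 and Gna12 at -0.15. Among 7 genes of desensitization, 3 had higher and 4 lower means (median -0.087), with Grk3, a receptor kinase, at 0.55 ± 0.24 (SE), Grk6, another receptor kinase, at -0.23 ± 0.10, Rgs2, which shortens Gq signals, at -0.38 ± 0.25, and the arrestin gene Arrb1 at 0.18 ± 0.13. An unadjusted p under 0.05 was reached by 2 genes of the cyclic AMP arm, 0 of the calcium arm, 0 of the Gi, G12 and G13 arms and 2 of desensitization, in limma.

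**Figure D5:**
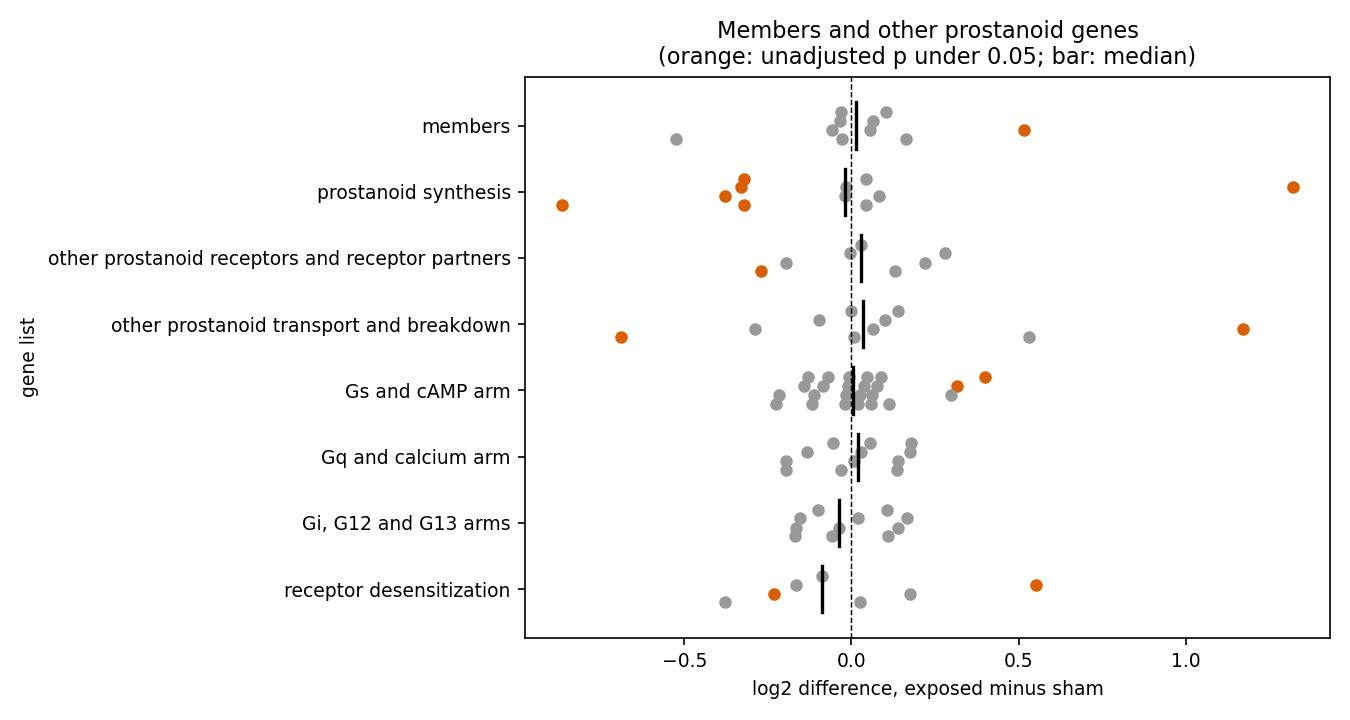
Log2 difference, exposed minus sham, of the 10 members and of the 82 further genes in 7 lists (dots; orange, unadjusted p under 0.05 in limma), with the median of each list (black bar). Medians lie between -0.087 and 0.036, and 5 of the 6 orange dots of the synthesis list lie below 0.

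The genes most alike in pattern were sought for the 3 members of smallest p, among 10026 genes above the array median. Pearson's r over the 8 mice was used, as a description that mixes group and mouse. Each r below is among the highest of 10026, and how high the top values reach by chance was not computed. For Ptger4 the most alike genes were Cpt1a, which admits fatty acids to mitochondria (r = 0.957), Ppm1k, a mitochondrial phosphatase (r = 0.954), and Mia2 (r = 0.945). Cpt1a was 8.74 ± 0.09 in sham and 8.99 ± 0.12 in exposed mice (n = 4 each). For Ptger3 they were Cercam (r = 0.991), Igf1, a growth factor of uterine stroma (r = 0.980), and Mcfd2 (r = 0.971). Igf1 gave 10.92 in exposed mouse 2 and 11.85 in sham mouse 4, against 12.11 to 12.80 in the other 6. For Ptger1 they were Fry (r = 0.975), Crim1 (r = 0.975) and Coch (r = 0.971), and Coch ranged from 6.39 to 7.52 in sham and from 6.56 to 9.56 in exposed mice.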

How the data were processed

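The table deposited by the authors gives log2 values, from 2.75 to 13.6, of 22206 probe sets on 8 arrays. The log2 scale is read from the values. Partek is named, without a version, per the submitters' processing notes, and background correction, summarisation, scaling and genome build were not given in the sources used here. Once sorted, any 2 arrays lie within 0.0198 of each other at each rank, so no further normalization was applied, and a change shared by all genes would not be visible. Symbols came from the platform annotation (19572 probe sets with 1 symbol, 0 with several, 2634 with none), with 0 updated by Entrez ID against RefSeq. Groups followed the sample titles. Limma 3.58.1 (R 4.3.3; lmFit and eBayes without covariates) gave exposed minus sham differences over all probe sets, with Benjamini-Hochberg adjustment and a threshold of 0.05, and the code was tested on simulated data. Folds are antilogs (base 2) of differences. Exact permutation covered the 70 assignments of mice, and the number of arrays limits precision.

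Named genes are all members, up to 4 genes of smallest p per list, and the 3 most alike genes for the 3 members of smallest p, and genes given in addition (Abcc4 and single marker genes) were chosen after their values were seen. The members and lists were chosen with earlier results of these data known. Marker scores are mean log2 values. Listed genes without a matching symbol (13 in the 7 lists) were not analysed here. Alternatives were other normalizations, filters, variance models, weighted arrays, a block for replicate number, and leaving out mice. The counts for the synthesis list without mice or with the block were added after seeing the data.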

Additional observations from a re-analysis of the deposited data

Results flagged for a closer look

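Among 94 groups of 4 mice (members, named list genes and most alike genes), 8 held a mouse flagged by Dixon's test. Its gap to the nearest of the others, divided by the range of the 4 values, passed Dixon's critical value. Chance alone passes it about once per 20 independent groups not chosen by their values. List genes were named by smallest p and the most alike genes by pattern, so this rate is no background for the 8. Of the 20 groups of members, 0 passed. In sham mice, mouse 4 was flagged for Akr1c14 (9.16, others 8.51 to 8.57), Cercam (7.10, others 7.41 to 7.43) and Igf1 (11.85, others 12.49 to 12.52). Mouse 3 was flagged for Slco2b1 (6.45, others 7.39 to 7.52). In exposed mice, mouse 4 was flagged for Ptgfrn (9.07, others 9.58 to 9.62) and Slco1a5 (3.29, others 3.69 to 3.74). Mouse 2 was flagged for Akr1c18 (4.82, others 4.69 to 4.70) and mouse 1 for Arrb1 (8.93, others 9.28 to 9.34). The probe sets of Slco1a5 and Akr1c18 were dim.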

How the results depend on the processing

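Of 150 member differences under alternatives, 50 could not move: the block, the permutation test and the mean of probe sets keep the difference by construction, and median centring and quantile normalization act on arrays already alike. Of the other 100, 87 kept their sign and 13 turned it, in 6 genes with differences near 0, and 0 of them passed adjustment. Array weights gave 0.011 for Ptger2, and leaving out exposed mice 2 and 4 gave 0.28 for Ptger2, 0.11 for Ptgfr and -0.0104 for Slco2a1. Leaving out 1 mouse gave -0.26 to 0.14 for Ptger2, -0.19 to 0.11 for Ptgfr, -0.13 to 0.042 for Ptgir, -0.11 to 0.046 for Tbxa2r and -0.012 to 0.099 for Hpgd. It gave 0 to 1 probe sets past adjustment, 1 without exposed mouse 1. Likewise 1 to 3 members had an unadjusted p under 0.05, and 1 to 2 did not overlap (Ptger1 joins without exposed mouse 1). Smaller groups separate more readily, and the share of all probe sets without overlap was not computed for these fits. The Ptger1 count therefore has no background to be read against. The synthesis count was 3 to 6, and 1 without exposed mice 2 and 4. The cause was not tested. The numbers of the mice carry no stated pairing. Deviations of same-numbered mice correlated between -0.24 and 0.085, and 0 of 4 sham mice correlated best with the exposed mouse of their number. So few values cannot decide whether mice were paired by number. With the replicate block 1 member, Ptger4 (0.51), had an unadjusted p under 0.05, and 1274 probe sets did. The synthesis count was 6 under the block. The filters left out Ptgir and Ptgdr, and the stricter filter Ptger2 too. Signal over background could not be assessed.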
